A study of Rattus norvegicus with 6 samples.

Results

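The genes of the mitochondrial respiratory chain were examined in the intestines of weanling rats. The chain sits in the inner mitochondrial membrane. Complexes I and II pass electrons from NADH and succinate to ubiquinone, complex III passes them on to cytochrome c, and complex IV hands them to oxygen. Complexes I, III and IV pump protons while they do so, and complex V, the ATP synthase, lets the protons flow back and makes ATP. Most subunits are encoded in the nucleus and imported, and a few core subunits are encoded in the mitochondrial genome. The intestinal epithelium, which absorbs nutrients and renews itself throughout life, is among the tissues that use much ATP.

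Members were chosen by symbol, as every gene with its own transcript cluster on the array whose symbol begins as those of the nuclear subunits of complexes I to V do. The names searched were *Nduf* followed by a, b, c, s or v, the 4 genes *Sdha* to *Sdhd*, and names starting with *Uqcr*, *Cox4* to *Cox8* or *Atp5*. They gave 100 of the 18166 genes tested, with 49 in complex I, 4 in complex II, 9 in complex III, 18 in complex IV and 20 in complex V. By their names, 73 members are subunits, 8 are the complex I assembly factors *Ndufaf1* to *Ndufaf8*, 2 are regulators (*Atp5if1*, the inhibitor of the ATP synthase, and *Cox7a2l*, which helps join complexes III and IV) and 17 are named as copies or pseudogenes of such genes. *Ndufa4* is counted under complex I by its symbol, although its protein is now placed in complex IV. Another 8 clusters carry the symbol of a respiratory chain gene together with a further symbol, among them those of *Atp5f1c*, *Atp5mc2*, *Cox7a2*, *Ndufa3* and *Ndufa10*, and were not used. They include clusters that the members *Uqcrb* and *Ndufs5* share with a copy or pseudogene.

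The 6 arrays come from male Sprague Dawley pups at 3 weeks of age, 3 from HFD-sitagliptin dams and 3 from HFD dams. All dams ate a high-fat diet (HFD) from 4 weeks before mating, and those of the HFD-sitagliptin group also received sitagliptin, an oral inhibitor of dipeptidyl peptidase 4, at 10 mg/kg/day through pregnancy and lactation. RNA of the intestinal sample of each pup, for which no segment is given, was hybridised to 1 Affymetrix rat gene array. The comparison asks how gene expression in the pups' intestine differed after treatment of HFD dams, and pups of dams on a normal diet were not analysed here.

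The arrays did not all show the same intestinal markers. Across genes, HFD-sitagliptin replicate 1 had r = 0.926 to 0.94 with each of the rest, which among themselves had r = 0.968 to 0.985. Its 14 measured brush border genes of 17 listed had a mean log2 level of 5.74, against 10.42 to 11.26 elsewhere, and its 10 measured smooth muscle and stroma genes of 12 stood at 10.10 against 8.53 to 8.94. The 5 measured genes of 6 listed as ileal had mean levels of 9.10 and 8.57 in replicates 2 of HFD-sitagliptin and HFD, against 5.03 to 6.77 in the other 4 arrays. Array medians were 4.45 to 4.62, and the highest value was 13.55. As a mark of background, the 95th percentile of 1185 olfactory receptor genes was 4.44, and 87 members had a mean above it. The 13 others, which cannot be told from background here, were 9 copies and the tissue isoforms *Ndufa4l2*, *Cox7b2*, *Cox8b* and *Cox8c*.

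Of the 100 members, 3 rose in HFD-sitagliptin and 0 fell at the threshold used by the study, which asks for a 1.5-fold change and, unadjusted, a p under 0.05 (here from limma). Over all genes tested, 2.01% passed it, 0.705% higher (128 genes) and 1.3% lower (237 genes), and with each array centred on its median 81 were higher and 390 lower. Leaving out HFD replicate 1 brought the count of members to 0 and leaving out HFD-sitagliptin replicate 1 brought it to 1, while 6 passed (5 higher and 1 lower) when HFD replicate 3 was left out. These 6 were *Atp5pd*, *Ndufaf3* and the copies *Atp5hl1*, *Cox7cl1*, *Ndufa13-ps1* and *Ndufb4l3*. The count over all genes moved in the same direction in each of these fits, as given below. With all arrays the 3 were *Atp5pd*, a stator subunit of the ATP synthase, and the copies *Ndufa13-ps1* and *Cox7cl1*. An unadjusted p under 0.05 was reached by 4 members, these 3 and *Ndufaf3*, against 5.72% of all genes. By limma with Benjamini-Hochberg adjustment over all genes, 0 members and 0 genes had an adjusted p under 0.05, and the lowest adjusted p was 0.718. The methods' t-test at the study's threshold called 0 members and 158 genes. The log2 fold change lay within 0.25 of 0 for 63 of the 100 members and for 66.3% of all genes. The members' median log2 fold change was -0.01, with 46 positive and 54 negative, and that of all genes was 0.01. Of 9 macrophage and dendritic cell markers, 3 rose (*Adgre1*, *Itgam* and *Spi1*), and the mean log2 level of the list was 6.69 to 7.17 in HFD-sitagliptin and 6.63 to 6.71 in HFD. They passed in 3, 4 and 2 of the 6 fits with an array left out. In that list 7 markers were positive and 2 negative, *Lyz2* at -0.87 and *Cd163* at -0.09. Epithelial markers past the threshold were lower, namely *Lct* (-3.71, and -2.32 without HFD-sitagliptin replicate 1), *Slc2a2* (-3.01 and -1.96) and *Enpp7* (-3.64 and -2.95). The pancreatic marker *Prss1*, which cannot be told from background, also passed, at -1.0. Of the 7 pancreatic markers, 5 were positive and 2 negative, with a median of 0.24. *Enpp7* passed in all 6 fits with an array left out, *Lct* and *Slc2a2* in 1 each. The signs within these lists were mixed except for brush border, where all 14 genes were negative. The proximal small intestine list, with *Lct* and *Slc2a2*, had 3 positive and 4 negative. The ileal list, with *Enpp7*, had 3 positive and 2 negative. The part of any of these markers in the members' values was not tested. Since whole tissue was measured, fewer cells of a type and less RNA per cell cannot be told apart.

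**Figure D1:**
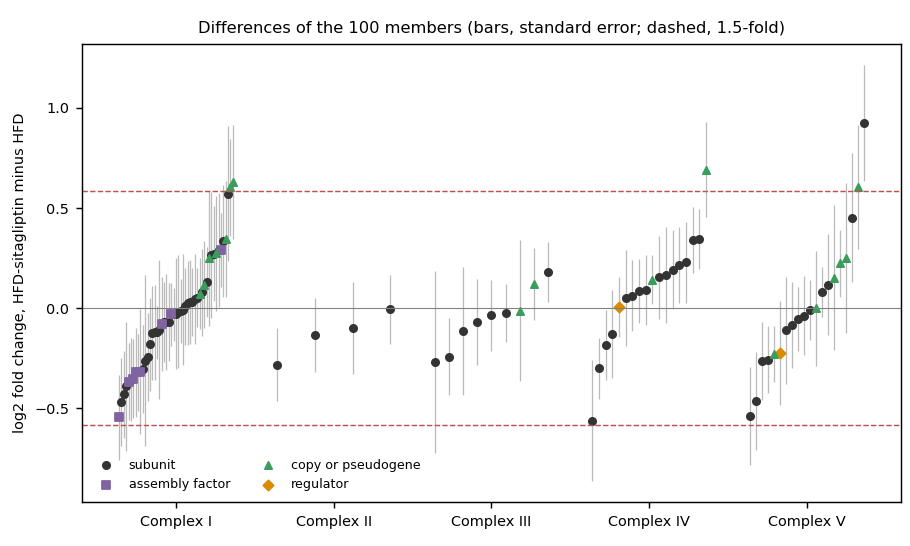
Log2 fold change of each of the 100 members, HFD-sitagliptin minus HFD, ordered by size within each complex on the x axis, with its limma standard error as a bar and the role of the gene as the marker. Most points lie between the dashed lines at a 1.5-fold change, *Atp5pd* of complex V is the highest at 0.93, and the assembly factors of complex I lie mostly below 0.

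By complex, the median log2 fold change was -0.03 for complex I, -0.12 for complex II, -0.04 for complex III, 0.12 for complex IV and -0.02 for complex V. Leaving out HFD-sitagliptin replicate 1 gave -0.09, -0.06, 0.01, 0.01 and 0.01. With each array left out in turn, the medians ran from -0.13 to 0.10 for complex I, -0.25 to -0.05 for complex II, -0.14 to 0.07 for complex III, 0.01 to 0.21 for complex IV and -0.18 to 0.10 for complex V. The groups did not overlap for 7 members, 1 of them higher in HFD-sitagliptin (*Atp5pd*, against 5.97% of all genes) and 6 lower (*Ndufaf3*, *Ndufs5*, *Cox6b1*, *Cox6c*, *Atp5mf* and *Atp5mk*, against 5.54% of all genes).

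Complex V held the largest difference of the set. *Atp5pd*, which encodes subunit d of the peripheral stalk that holds the catalytic head still, had log2 values of 6.54, 6.86 and 6.81 in HFD-sitagliptin replicates 1 to 3 and of 5.46, 5.49 and 6.47 in HFD replicates 1 to 3. The groups did not overlap, but HFD replicate 3 lay within 0.07 of the lowest HFD-sitagliptin array. Means were 6.74 ± 0.17 and 5.81 ± 0.57 (SD, n = 3 each), a log2 fold change of 0.93 with a standard error of 0.29 (limma, adjusted p = 0.718), and an exact two-sided permutation test gave p = 0.1, the smallest that 3 arrays against 3 allow. Of 6 fits that each left out 1 array, 3 put it past the threshold, but not those without HFD-sitagliptin replicate 2, HFD replicate 1 or HFD replicate 2, where the log2 fold change was 0.87, 0.75 and 0.77. Without HFD-sitagliptin replicate 1 it was 1.02.

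*Atp5hl1*, named as a copy of the same gene (subunit d was formerly called *Atp5h*), read 6.79, 7.15 and 6.93 in HFD-sitagliptin and 5.90, 6.10 and 7.05 in HFD. Its groups overlapped through HFD replicate 3, which stood with the treated arrays as it nearly did for *Atp5pd*. The log2 fold change was 0.61 with a standard error of 0.31, and the test was not passed. The 2 clusters followed each other over the 6 arrays at r = 0.96. Copies of a subunit gene share sequence, and the probes of the array were not checked for signal from the other copy, so the source of both values is uncertain.

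No further subunit of complex V passed the test. The catalytic subunits *Atp5f1a* and *Atp5f1b*, which bind the nucleotides, had log2 fold changes of -0.05 and 0.08 with standard errors of 0.16 and 0.13. *Atp5f1b* was among the 3 members with the smallest spread, from 11.44 to 11.75 over the arrays. The stalk subunits *Atp5pb*, *Atp5po* and *Atp5pf* stood at -0.26, -0.04 and 0.45. *Atp5mc1* and *Atp5mc3*, which encode the same mature ring subunit with different import sequences, stood at -0.01 and 0.12.

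Of the small membrane subunits of the synthase, *Atp5mf* and *Atp5mk* were lower in HFD-sitagliptin with groups that did not overlap, and neither passed the test. *Atp5mf*, which encodes subunit f, was at 6.11, 5.62 and 6.22 in HFD-sitagliptin and 6.95, 6.25 and 6.37 in HFD. HFD replicate 1 was the highest array and HFD-sitagliptin replicate 2 the lowest, and the groups were separated by 0.03. The log2 fold change was -0.54 with a standard error of 0.25. For *Atp5mk*, a small subunit that also helps dimers of the synthase form, values were 10.80, 10.28 and 10.86 against 11.54, 10.90 and 10.89. Again the groups were separated narrowly, by 0.03, with HFD replicate 1 on top. Its log2 fold change was -0.46, and -0.25 without HFD replicate 1. *Atp5if1*, whose protein blocks the synthase when it would run backwards, stood at -0.22 with a standard error of 0.26.

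Complex I, the entry point for electrons from NADH, had 34 subunits on the array, of which 0 passed the threshold. *Ndufs5* had the lowest log2 fold change among them, -0.47 with a standard error of 0.22. It read 8.21, 8.03 and 8.41 in HFD-sitagliptin and 9.13, 8.42 and 8.50 in HFD, so that the groups were 0.02 apart and HFD replicate 1 was far above the rest. Without that array the difference was -0.25. *Ndufc2*, a subunit of the membrane arm, read 9.69, 9.34 and 9.74 against 10.40, 9.67 and 10.00. HFD replicate 1 was again on top, the groups overlapped, and the log2 fold change was -0.43.

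At the other end, *Ndufb8*, also of the membrane arm, read 8.56, 7.70 and 8.46 in HFD-sitagliptin and 7.71, 7.13 and 8.16 in HFD. The groups overlapped, and replicate 2 was the lowest array of each. It was among the 6 members with the largest spread, and the log2 fold change was 0.57 with a standard error of 0.34. *Ndufa2*, another of these 6, read 6.21, 5.20 and 6.41 against 6.53, 5.46 and 6.60, with both replicates 2 well below every other array, and a log2 fold change of -0.26. The standard error of that difference was 0.43.

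The subgroups of complex I had different medians. All 7 *Ndufs* subunits, which belong mostly to the arm that takes up NADH and carries the iron-sulfur clusters, had negative log2 fold changes, with a median of -0.24 and a range from -0.47 to -0.01. Of the 18166 genes tested, 8744 were negative. For the 11 *Ndufa* and 10 *Ndufb* subunits the medians were 0.05 and -0.03, the 3 *Ndufv* subunits had -0.03, and the 2 *Ndufc* subunits, both negative, had -0.23. With each array left out in turn, the median of the *Ndufs* group ran from -0.34 to -0.05. Among the core subunits of the NADH arm, *Ndufs1* stood at -0.30, *Ndufs8* at -0.12, *Ndufv1*, which holds the NADH binding site, at -0.12, *Ndufs3* at -0.02, *Ndufs7* at -0.01 and *Ndufv2* at 0.03.

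Assembly factors of complex I, which build the complex without staying in it, had negative log2 fold changes in 7 of 8 cases. The same sign was found for 8744 of the 18166 genes tested. Their median log2 fold change was -0.32, and -0.16 without HFD-sitagliptin replicate 1, the array low in brush border genes. The part of those genes in the difference was not tested. *Ndufaf3* had the lowest, with 5.87, 5.60 and 6.11 in HFD-sitagliptin and 6.77, 6.25 and 6.19 in HFD. The groups were 0.08 apart, with HFD replicate 1 the highest. Means were 5.86 ± 0.25 and 6.40 ± 0.32 (SD, n = 3 each) and the log2 fold change was -0.54 with a standard error of 0.21 (limma, adjusted p = 0.718), short of the 1.5-fold limit. It passed the threshold when arrays were centred on their medians, at -0.61, without HFD-sitagliptin replicate 3, at -0.67, and without HFD replicate 3, at -0.65, and stood at -0.36 without HFD replicate 1. The exception in sign was *Ndufaf8*, at 0.29 with a standard error of 0.19. With the other 9 listed complex I assembly genes measured, 0 of 17 passed the test in either direction, and the median was -0.15.

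*Ndufa13-ps1*, a pseudogene of a membrane arm subunit, rose by 0.60 on the log2 scale with a standard error of 0.24 (limma, adjusted p = 0.718). Its values were 5.98, 5.55 and 5.77 in HFD-sitagliptin and 5.12, 4.75 and 5.61 in HFD. HFD replicate 3 overlapped the treated arrays, as it did for *Atp5hl1*. It still passed when HFD-sitagliptin replicate 2 or HFD replicate 3 was left out, and not when any of the other 4 arrays was, where the log2 fold change went down to 0.40 (without HFD replicate 2). Quantile normalization and centring of the arrays gave 0.57 and 0.54, also short of it. *Ndufb4l3*, a copy of *Ndufb4* that cannot be told from background, stood at 0.63 with a standard error of 0.28, and passed the threshold once the replicate number entered the fit as a block, which gave a standard error of 0.16. *Ndufb4* itself was at 0.01.

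Named copies mostly had higher values in HFD-sitagliptin. Of the 17, 15 had positive log2 fold changes, against 9422 of the 18166 genes tested, and 2 passed the threshold, against 0.705% of all genes. The median was 0.22, or 0.23 without HFD-sitagliptin replicate 1. Among them 9 cannot be told from background, and copies share sequence with their parents and with each other, so the values are not 17 separate measurements. HFD replicates 1 and 2 held the lowest value of 5 copies each. *Atp5mgl3*, a copy of *Atp5mg* and the last of the 6 members with the largest spread, read 5.36, 4.91 and 5.03 against 5.21, 3.97 and 5.35, with HFD replicate 2 alone low. The pseudogene *Cox6c-ps1*, at 2.52 to 2.85, was among the 3 with the smallest spread, along with *Atp5f1b* and *Ndufv3*.

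Complex II, the succinate dehydrogenase that also serves the tricarboxylic acid cycle, was measured through all 4 of its subunits. *Sdhb*, the iron-sulfur subunit, read 9.19, 9.33 and 9.77 in HFD-sitagliptin and 9.71, 9.57 and 9.85 in HFD. The groups overlapped through HFD-sitagliptin replicate 3, and the other treated arrays were below every HFD array. Its log2 fold change was -0.28 with a standard error of 0.18, and -0.16 without HFD-sitagliptin replicate 1. *Sdha*, the flavoprotein that oxidises succinate, had 9.87, 9.73 and 10.35 against 10.16, 10.03 and 10.17, with a log2 fold change of -0.14. The membrane anchors *Sdhc* and *Sdhd* stood at -0.10 and -0.00. None of the 4 passed the test.

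Complex III, which receives electrons from ubiquinone, differed little between the groups. Its 7 subunits had log2 fold changes from -0.27 to 0.18, and 0 passed the test. *Uqcrb*, which helps hold the ubiquinone site, was at the low end with a standard error of 0.45. Its SD over the 6 arrays, 0.63, was level with that of *Atp5pd*, and these 2 were the highest of the set. It read 5.44, 4.16 and 4.79 in HFD-sitagliptin and 5.61, 4.23 and 5.37 in HFD. Both replicates 2 were the low ones and lay below the background mark of 4.44. The mean over the arrays was 4.93, and a further cluster that *Uqcrb* shares with a copy was not used. The core proteins *Uqcrc1* and *Uqcrc2* stood at -0.07 and -0.24, and *Uqcrfs1*, the Rieske iron-sulfur protein, at -0.11. At the high end *Uqcr11* had 0.18 with a standard error of 0.15.

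In complex IV, cytochrome c oxidase, 14 of 18 members had positive log2 fold changes, against 9422 of the 18166 genes tested. Of its 15 subunits, 0 passed the threshold. *Cox6b1*, which joins the monomers of the oxidase on the intermembrane side, was the lowest at -0.56 with a standard error of 0.30. Its values were 8.44, 8.35 and 8.53 in HFD-sitagliptin and 9.72, 8.64 and 8.64 in HFD. The groups were 0.11 apart, the widest gap among the 6 members lower in HFD-sitagliptin, but HFD replicate 1 stood far above the other HFD arrays, which were level, and without it the difference was -0.20. A second cluster of the gene, with a mean of 2.70, differed by 0.05. *Cox6c*, a small membrane subunit, read 6.31, 5.88 and 6.26 against 6.54, 6.38 and 6.44, a difference of -0.30 with a standard error of 0.15.

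The copy *Cox7cl1* rose by 0.69 on the log2 scale with a standard error of 0.24 (limma, adjusted p = 0.718), from values of 4.31, 4.13 and 3.61 in HFD-sitagliptin and 3.31, 3.04 and 3.63 in HFD. HFD-sitagliptin replicate 3 and HFD replicate 3 were level, and the threshold was passed when either was left out, but not when any of the other 4 arrays was. Its mean lay at the 83.5th percentile of olfactory receptor genes, so a level above background was not shown. *Cox7c*, the subunit gene for which it is named, was at 0.09.

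Several oxidase subunits exist in a widely used form and a tissue form. *Cox4i1*, the common form of subunit 4, read 10.56, 9.83 and 10.15 in HFD-sitagliptin and 9.95, 9.97 and 10.05 in HFD, and *Cox8a* read 10.48, 9.80 and 10.04 against 9.68, 9.99 and 9.96. HFD-sitagliptin replicate 1 was the highest array for both, and without it their log2 fold changes went from 0.19 and 0.23 to 0.00 and 0.04. *Cox4i2*, the form of subunit 4 known from lung, read 5.01, 5.01 and 5.20 against 4.67, 4.51 and 5.02, a difference of 0.34 with a standard error of 0.17. *Cox8b*, a heart and skeletal muscle form, differed by 0.35 with a standard error of 0.15 and cannot be told from background, while *Cox6a2*, also of striated muscle, stood at 0.22 and *Cox6a1*, its common counterpart, at -0.18. The 11 measured striated muscle genes of 14 had mean levels of 4.15 to 4.49 over the arrays. The testis forms *Cox6b2*, *Cox7b2* and *Cox8c* stood at 0.06, -0.13 and 0.05, and *Cox7b* at 0.16. *Ndufa4* and its low-oxygen relative *Ndufa4l2* had -0.39 and -0.12.

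**Figure D2:**
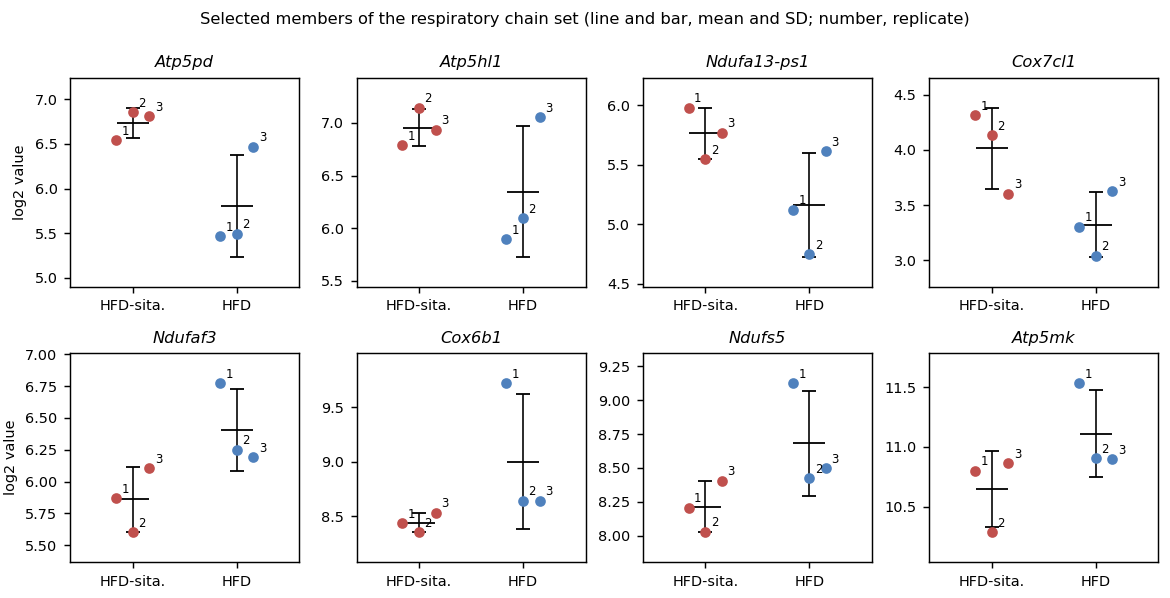
Log2 value of 8 members in each pup, with HFD-sitagliptin in red and HFD in blue, replicate numbers beside the points, and the mean and SD of each group as a line and bar. The upper row holds *Atp5pd* and copies of subunit genes, in which HFD replicate 3 is the highest HFD array, and the lower row holds members lower in HFD-sitagliptin, in which HFD replicate 1 is the highest array.

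Within each group the arrays stood further apart in subunit levels than the groups did. For each gene the mean over the 6 arrays was subtracted, and the median was taken over the 69 subunits told from background. It was 0.08, -0.32 and 0.16 in HFD-sitagliptin replicates 1 to 3 and 0.08, -0.14 and 0.12 in HFD replicates 1 to 3, whereas that of all 11884 genes told from background lay between -0.04 and 0.04. The lowest array was HFD-sitagliptin replicate 2 for 43 of the 69 subunits (62.3%, against 17.1% of those genes). HFD replicate 2 was the lowest for 15 (21.7%, near the 19.8% of those genes). HFD-sitagliptin replicate 3 and HFD replicate 3 were each the lowest for 0, against 13.8% and 9.58% of those genes.

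Both replicates 2 were below all other 4 arrays for 33 of the 69 subunits (47.8%, against 11.5% of all genes told from background). By complex this held for 23 of 33 subunits in complex I, 0 of 4 in complex II, 4 of 7 in complex III, 2 of 12 in complex IV and 4 of 13 in complex V. *Ndufa2* and *Uqcrb*, given above, are among them. Lower medians in replicates 2 were not particular to the subunits. In replicates 2 of HFD-sitagliptin and HFD the median deviation was -0.25 and -0.18 for mitochondrial ribosomal proteins. It was -0.24 and -0.15 for mitochondrial import genes, and -0.16 and -0.19 for carriers and uncoupling proteins. The mitochondrially encoded genes had -0.03 and 0.01. Replicates 2 are also the arrays with the highest mean level of the ileal list. *Fabp6*, the ileal bile acid binding protein, read 13.16 and 12.62 there and 3.61 to 7.36 elsewhere, and *Slc10a2*, the ileal bile acid transporter, read 9.58 and 6.82 there and 3.41 to 5.12 elsewhere. The other 3 genes of the list did not share the pattern, and whether they mark the ileum in these pups was not examined. *Nr1h4* was highest in HFD-sitagliptin replicate 1 at 8.53. *Fgf19* was high only in HFD-sitagliptin replicate 2, at 6.57 against 4.23 to 4.48 in every other array. *Enpp7* read 7.86 in HFD-sitagliptin replicate 2, below every HFD array. The part of the ileal genes, or of the gut segment taken, in the subunit levels was not tested. Replicates 2 are 1 array of each group, and the pattern was noticed in these data.

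**Figure D3:**
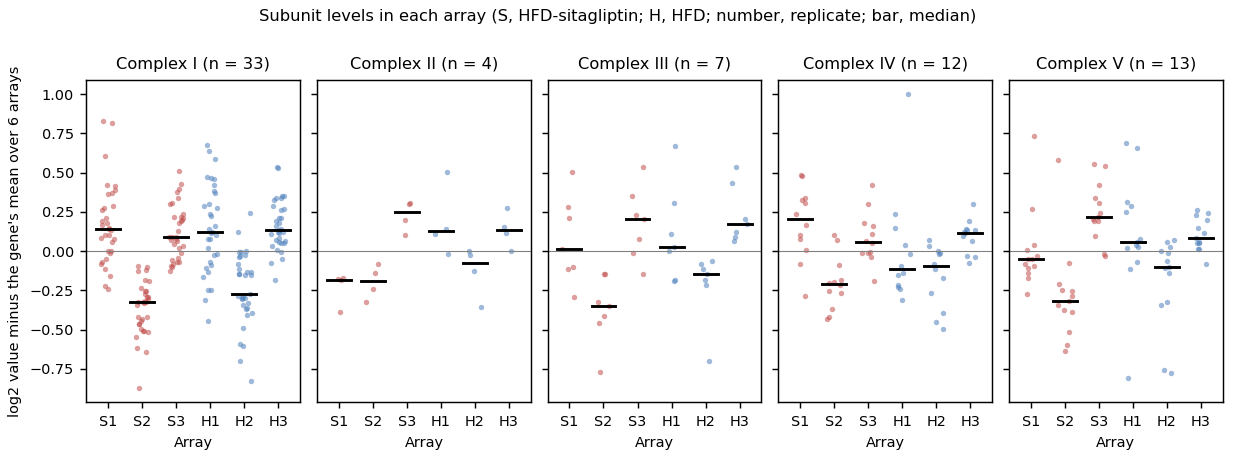
Log2 value minus the gene's mean over the 6 arrays for the 69 subunits told from background, 1 point a gene, by array (S, HFD-sitagliptin; H, HFD) and complex, with the median as a bar. S2 and H2 have medians of -0.33 and -0.27 in complex I, and S1 has its highest median, 0.20, in complex IV and its lowest, -0.18, in complex II.

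HFD-sitagliptin replicate 1, which stood apart in brush border, muscle and some hindgut genes, did not stand apart in the chain as a whole. At least 0.5 outside the range of the other 5 arrays were 3 of the 87 members told from background in that array, all above, against 8.20% of genes above and 7.34% below. These were *Ndufa8*, at 10.23 against 9.12 to 9.39, and *Ndufa7*, at 8.97 against 7.73 to 8.15, both accessory subunits of complex I, and *Atp5pf* of the stalk of complex V, at 9.35 against 7.87 to 8.83. In that array the median deviation was 0.20 for complex IV subunits, 0.14 for complex I, 0.01 for complex III, -0.05 for complex V, -0.18 for complex II and -0.24 for the assembly factors. HFD replicate 1 was at least 0.5 above the other arrays for 6 members (6.90%, against 3.67% of genes), *Cox6b1* and *Ndufs5* among them.

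**Figure D4:**
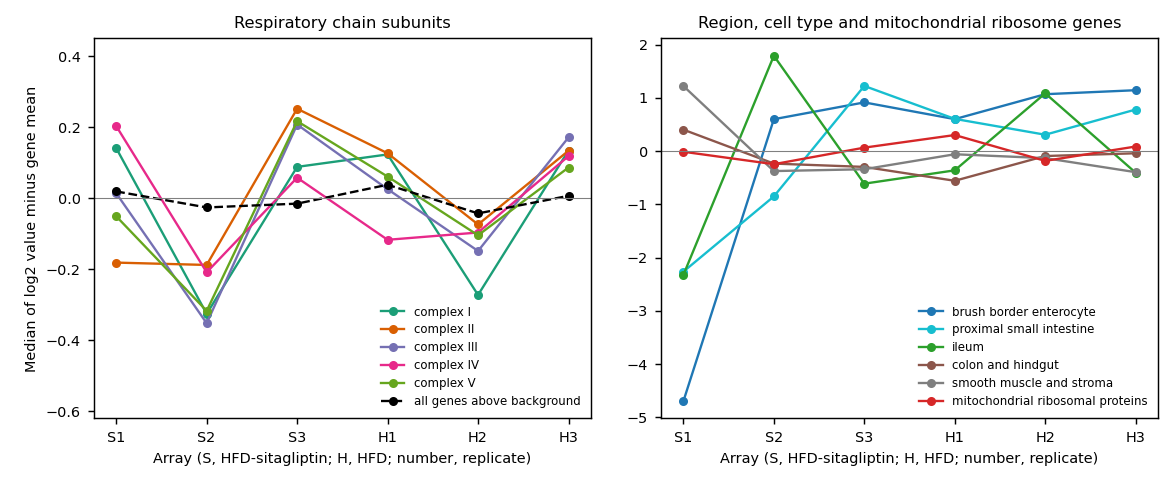
Median over the genes of each set of the log2 value minus the gene's mean, by array (S, HFD-sitagliptin; H, HFD), on separate scales for subunits of complexes I to V (left) and for marker lists and mitochondrial ribosomal proteins (right). The brush border genes drop to -4.70 in S1 while subunit medians there lie between -0.18 and 0.20, and the median of the ileal list is highest in S2 and H2, where complex I is lowest.

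Subunits told from background also followed each other from array to array. Over 2346 pairs of these 69 genes the median Pearson r across the 6 arrays was 0.52, with 88.3% of pairs positive, against 0.02 and 51.6% for all genes told from background. Within complexes the median r was 0.59 in I, 0.63 in II, 0.53 in III, 0.39 in IV and 0.55 in V, and between complex I and the others it was 0.51. The points are 6 arrays that differ in gut segment markers, so these values describe the arrays and carry no test.

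Promoters of the set, from 250 bases before to 50 after the start in RefSeq (assembly GRCr8), were searched on both strands for the core motif of nuclear respiratory factor 1, GCATGCGC, and for an ETS core motif, CCGGAAG, which is bound by nuclear respiratory factor 2 and many related factors. These factors are known to bind promoters of respiratory chain genes. Of the 100 members, 81 were matched. The former motif was present in 10 of them (12.3%, against 2.47% of the 33469 promoters in the table), the latter in 21 (25.9%, against 8.75%) and both in 4 (4.94%, against 0.472%). Among the 7 copies matched, 0 held either motif. The 4 promoters that hold both are shown because they spread over 3 complexes, each as the 250 bases before the start with the motifs or their reverse complements in capitals: *Ndufa6* (chr7:115750318-115750567, minus strand), *Sdhb* (chr5:158547684-158547933, plus strand), *Atp5me* (chr14:1464610-1464859, plus strand) and *Atp5mg* (chr8:54130408-54130657, minus strand). In *Atp5me* the capitals GCGCATGCGC cover a match on each strand, which overlap.
Ndufa6: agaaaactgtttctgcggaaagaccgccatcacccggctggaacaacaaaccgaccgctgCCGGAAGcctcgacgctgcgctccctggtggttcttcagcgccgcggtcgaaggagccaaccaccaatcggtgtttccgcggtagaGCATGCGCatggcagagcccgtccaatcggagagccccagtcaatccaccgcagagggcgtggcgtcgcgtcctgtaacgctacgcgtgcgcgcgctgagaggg
Sdhb: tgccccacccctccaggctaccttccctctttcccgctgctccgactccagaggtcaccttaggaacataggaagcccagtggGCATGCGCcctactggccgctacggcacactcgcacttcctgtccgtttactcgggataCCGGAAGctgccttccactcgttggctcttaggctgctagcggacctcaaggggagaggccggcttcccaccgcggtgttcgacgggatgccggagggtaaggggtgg
Atp5me: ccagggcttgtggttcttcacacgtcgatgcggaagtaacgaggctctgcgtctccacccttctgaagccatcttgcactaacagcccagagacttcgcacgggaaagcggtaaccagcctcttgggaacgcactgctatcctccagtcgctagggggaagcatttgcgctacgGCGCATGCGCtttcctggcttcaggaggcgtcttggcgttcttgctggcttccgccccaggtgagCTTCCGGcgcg
Atp5mg: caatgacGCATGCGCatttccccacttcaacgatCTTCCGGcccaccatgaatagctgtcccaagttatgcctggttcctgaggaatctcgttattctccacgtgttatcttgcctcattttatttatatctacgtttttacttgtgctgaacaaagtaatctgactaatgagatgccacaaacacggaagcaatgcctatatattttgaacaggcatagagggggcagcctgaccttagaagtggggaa

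The 4 genes had log2 fold changes of -0.07 for *Ndufa6*, an accessory subunit, -0.28 for *Sdhb*, -0.11 for *Atp5me*, subunit e, and -0.08 for *Atp5mg*, subunit g, none past the test. *Ndufa6* read 8.82, 8.50 and 9.04 in HFD-sitagliptin and 8.74, 8.68 and 9.16 in HFD, with both replicates 2 below the rest. *Atp5me* had 9.69, 9.14 and 9.96 against 9.90, 9.31 and 9.91, in the same order of low arrays. *Atp5mg* had 8.05, 7.84 and 8.64 against 8.30, 8.21 and 8.28. The presence of the letters is a description and was not tested against these values.

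Related mitochondrial pathways were described through lists of 208 genes in all, of which 4 passed the threshold (1.92%, against 2.01% of all genes tested, a share near the background). Of 19 listed regulators of mitochondrial biogenesis 0 passed the threshold, with a median of -0.13, and -0.02 without HFD-sitagliptin replicate 1. *Nrf1*, which encodes nuclear respiratory factor 1, stood at -0.07 and *Tfam*, which maintains mitochondrial DNA, at -0.21. *Gabpa* and *Gabpb1*, which encode nuclear respiratory factor 2, stood at -0.44 and -0.58 with standard errors of 0.19 and 0.18. Without HFD-sitagliptin replicate 1 they stood at -0.31 and -0.45. *Gabpb1* was just short of the 1.5-fold limit, and passed the threshold in 3 of the 6 fits with an array left out. *Ppargc1a*, a coactivator of the nuclear respiratory factors, read 7.27, 5.33 and 7.16 in HFD-sitagliptin and 7.76, 6.40 and 7.16 in HFD. Both replicates 2 were the low arrays, as for the subunits, and the difference was -0.52 with a standard error of 0.59. The regulators named here were picked from the list after their values were seen. The mitochondrially encoded oxidase genes COX1, COX2 and COX3 stood at 0.02, 0.17 and -0.01, with values from 12.28 to 13.30, near the top of the scale where differences may be compressed.

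Among 72 mitochondrial ribosomal proteins, 0 rose and 1 fell, against 0.705% higher and 1.3% lower over all genes, and the median was -0.12. *Mrpl37*, a protein of the large subunit, read 7.07, 7.45 and 7.58 in HFD-sitagliptin and 8.35, 7.96 and 8.02 in HFD. Every HFD array was above every treated array. The log2 fold change was -0.74 with a standard error of 0.19, and all 6 fits that left out an array put it past the threshold. Of 28 measured assembly genes of complexes II to V, 0 rose and 1 fell. This was *Cox20*, a chaperone for an oxidase subunit, with 8.0, 7.57 and 7.90 against 8.99, 8.18 and 8.18 and a log2 fold change of -0.62, past the threshold still when HFD replicate 2 or 3 was left out, and not when any other array was. Without HFD replicate 1, the highest array, it was -0.35.

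Of 17 tricarboxylic acid cycle genes, 1 rose and 0 fell, and the median was -0.27, or -0.15 without HFD-sitagliptin replicate 1. *Pc*, pyruvate carboxylase, which refills the cycle, read 6.61, 5.69 and 5.69 against 5.26, 5.46 and 5.25. HFD-sitagliptin replicate 1 was well above the rest, the other treated arrays were identical, and without replicate 1 the log2 fold change went from 0.67 to 0.37 and the threshold was not passed. Of 25 import genes, 1 rose and 0 fell. *Timm23b*, a copy of a channel subunit of the inner membrane, read 8.75, 8.49 and 8.65 against 7.43, 8.16 and 8.22, with a log2 fold change of 0.69. Without HFD replicate 1, the lowest array, it was 0.44 and the threshold was not passed, nor was it without HFD-sitagliptin replicate 1 or 3. Among 19 genes of electron carriers and ubiquinone synthesis and 9 carriers and uncoupling proteins, 0 passed in either direction, with a median of -0.09 for each.

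The counts of these lists moved with single arrays, and so did that over all genes tested, which was 365 with all arrays. It became 297, 451 and 880 when replicate 1, 2 or 3 of HFD-sitagliptin was left out, and 239, 469 and 487 when replicate 1, 2 or 3 of HFD was. Each of these counts is out of 18166 genes. The lists hold 17 cycle genes, 72 ribosomal proteins, 17 complex I assembly genes and 28 assembly genes of complexes II to V. They also hold 25 import genes, 19 regulators and 9 carriers. The list counts that follow are in either direction and were not tested against the count over all genes. Without HFD-sitagliptin replicate 3, where 880 genes passed in all, 6 tricarboxylic acid cycle genes, 5 mitochondrial ribosomal proteins, 3 complex I assembly genes and 2 regulators of biogenesis passed. Without HFD replicate 2, 5 ribosomal proteins, 3 assembly genes of complexes II to V, 3 import genes and 1 regulator passed. Without HFD replicate 3 there were 2 ribosomal proteins, 2 assembly genes of complexes II to V, 2 cycle genes and 1 complex I assembly gene, and without HFD replicate 1 there were 0 in the lists of the cycle, of import and of assembly of complexes II to V. Leaving out HFD-sitagliptin replicate 1 gave 3 ribosomal proteins and 0 in those same lists, and leaving out HFD-sitagliptin replicate 2 gave 2 import genes, 1 regulator, 1 carrier and 0 assembly genes of complexes II to V.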

How the data were processed

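Total RNA from the intestines of 6 pups was hybridised to Affymetrix rat gene arrays, 1 per pup. The labels name a mirVana kit and the study's methods TRIzol for the RNA, and the part of the intestine is not given in the sources used here. The authors normalized the scans in GeneSpring 12.5 with an algorithm that is not named, and deposited log2 values, whose scale was inferred from their range. They were used as deposited. For 28.6% of genes, and 7 of the 100 members, at least 2 arrays hold exactly equal values, within or across groups, and the effect on the test was not examined.

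Of 36685 transcript clusters, 18511 carry exactly 1 symbol in the platform's gene table and 575 carry several. The cluster with the highest mean was taken for each of 18166 genes, and 5 members had more than 1 cluster. No coordinates of the clusters are given, since the build is not named. Groups were compared over all genes with limma 3.58.1 under R 4.3.3, by lmFit and eBayes without covariates. Each group is 3 pups, so p-values measure the spread between these pups, and the number of arrays limits the precision. Arrays have no read depth. The fit was run on simulated arrays of the same group sizes, with independent noise and known planted changes. This checked that the changes were recovered. It did not check p-values or false calls, or arrays that stand apart.

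The rule for named genes takes members past the threshold, in each complex the 2 with the smallest p and the highest and lowest log2 fold change, the 6 members with the largest and the 3 with the smallest SD, tissue isoforms with their common partners, the *Sdh* genes, the 3 with the widest gap between groups in each direction, and pathway genes past the threshold. Other genes were named after their values were seen. Members, lists and rule were chosen with earlier results of these data known.

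Same-number arrays of the 2 groups, after subtraction of group means, correlated at 0.146, 0.284 and 0.148 across genes and the other pairs at -0.24 to 0.0201, so the number was also entered as a block. Neither labels nor paper state a pairing, which rests on these values alone, and the 0.284 is that of the arrays high in *Fabp6*. Alternatives were the methods' t-test, the block, quantile normalization, centring, trend and robust moderation, the mean of a gene's clusters, leaving out dim genes (below the 40th percentile of clusters) or each array in turn, other thresholds, and subunits only. Promoters were read from a RefSeq table. A comparison of isoform proteins was planned and not made, and no protein sequence was used here.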

Additional observations from a re-analysis of the deposited data

How the results depend on the processing

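The count of members past the study's threshold, 3 in limma, was 0 by the methods' t-test, 0 at an adjusted p under 0.05, and 0 to 6 with 1 array left out. The count over all genes, 365, was 158 by the methods' t-test, 0 at an adjusted p under 0.05, 1040 at an unadjusted p under 0.05 with no fold threshold, and 239 (without HFD replicate 1) to 880 (without HFD-sitagliptin replicate 3) with 1 array left out. The causes were not tested. With the replicate number as a block 4 members and 476 genes passed. *Ndufb4l3* was the member added, and the block changed no other call among the named members. Quantile normalization and leaving out dim genes each gave 2 members. Over the alternatives the medians by complex changed sign in 9 of 70 values, 4 for complex I, 3 for complex III and 2 for complex V, and kept it for complexes II and IV. Of 463 alternative values for named members, 439 stayed on the same side of the threshold, 16 lost the call and 8 gained it. The sign differed in 27 of them, for 12 members, none of which had passed the threshold. Of the counts for pathway lists, 40 stayed within 1.5 times and 23 did not. With 3 arrays a group, values near background, or near the top of the scale as for the mitochondrially encoded COX1 and COX3, limit what a difference can show.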
